A study of Mus musculus with 4 samples.

Results

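Keratins are the intermediate filament proteins of epithelial cells, and the 49 genes described here are the protein-coding mouse genes named Krt followed by a number alone. They were found among 51826 gene rows by matching the Ensembl identifier to GENCODE M21 on build GRCm38. Of the 49, 26 encode type I chains and 23 encode type II chains. In 2 clusters lie all of these genes: 25 on chromosome 11 between 99232761 and 100269871, all type I, and 24 on chromosome 15 between 101347444 and 102032027, which are the type II genes and Krt18. The rule leaves out Krt6a, Krt6b, Krt33a and Krt33b, whose names end in a letter, and the pseudogenes Krt74 and Krt8-ps.

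RNA came from mammary tumours labelled C3-T+ in 4 mouse libraries. In 2 libraries the tumours had the genotype Elf5+/+ (WT) and in 2 they had Elf5+/- (HET), so all 4 carried the C3-T transgene and Elf5 copy number was the labelled difference. Elf5 encodes an ETS-family transcription factor of mammary luminal progenitors. Tumours were digested with collagenase and hyaluronidase and sorted with antibodies to CD45, CD31 and TER119, which mark leukocytes, endothelium and erythroid cells. The labels and protocols used here do not name the promoter of the transgene, the design of the Elf5 allele or the age of the animals. The titles of the HET libraries share a leading number and those of the WT libraries do not, so the HET libraries may be tumours of 1 animal, and nothing in the labels says that libraries came from separate animals, so a p-value here speaks only to the spread among these 4 libraries, which may be technical.

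A keratin filament is built from paired chains, 1 of type I and 1 of type II, and most epithelia make characteristic pairs. In the mammary gland Krt8 and Krt18, with Krt7 and Krt19, are known from luminal cells, and Krt5, Krt14 and Krt17 from basal cells. Other members are known from the upper epidermis, from wounded or fast-growing skin, and from the hair follicle and hair shaft.

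Each library held between 12695132 and 15307939 estimated counts, and levels are given in CPM, counts as a share of the library total on the usual common scale, after TMM scaling, which adjusts for library composition. A count of 0 allows up to 3 counts, or 0.196 to 0.236 CPM of total counts. The library labelled WT 2 stood apart from the other libraries: 44.5% of gene rows had no count in it, against 29.9% to 31.3% elsewhere. Its Elf5 level, 4.68 CPM, was also below the 5.36 and 10.6 CPM of HET 1 and HET 2, while WT 1 stood at 35.5, so every direction of HET against WT below rests on that label. Epithelial markers (Epcam, Cdh1, Cldn3, Cldn4, Cldn7) were present in all libraries at summed levels of 1544 CPM (WT 1), 2288 (labelled WT 2), 1582 (HET 1) and 1109 (HET 2). Markers of other cell types were also present: the 6 fibroblast markers summed to 6395, 21442, 3803 and 4797 CPM in the same order, all 6 below 0 in log2 fold change of HET over WT and 4 of them with HET wholly below WT (15.9% of all genes tested were). The 5 leukocyte markers summed to 171, 7.45, 197 and 163 CPM, all 5 above 0 and 3 of them higher in both HET libraries, against 19.6% of all genes tested. Macrophage markers summed to 644, 28.1, 673 and 397 CPM with all 6 above 0. Of these 6, 0 were separated by genotype, against 19.6% (HET higher) and 15.9% (HET lower) of all genes tested. Endothelial markers summed to 335, 66.4, 269 and 481 CPM, all 5 above 0 and 3 higher in both HET libraries, against the same 19.6%. Erythroid markers summed to 67, 23, 83 and 203 counts, and the 3 in the fit were all above 0. Of these 3, 2 were higher in both HET libraries, again against 19.6%. Hbb-bt, an erythroid marker outside the fit, had 5, 6, 4 and 1 counts. Hbb-bs and Hba-a2, both erythroid, were at 0 in some libraries and no marker of the other 4 lists was, and their part in the keratin values was not tested. In such bulk libraries fewer keratin-bearing cells and less keratin RNA per cell cannot be told apart.

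Keratin transcripts were present in all 4 tumours, with 5 genes holding most of them. Together the 49 members took 0.282% of counts (WT 1), 0.192% (labelled WT 2), 0.195% (HET 1) and 0.17% (HET 2), which is 2933, 2089, 1836 and 1592 CPM after scaling. Both HET libraries thus lay below both WT libraries. With total counts in place of TMM the sums were 2816, 1924, 1948 and 1698 CPM, and the genotypes overlapped. The 5 members with the most counts, Krt18, Krt8, Krt14, Krt7 and Krt17, held 92.6%, 87.0%, 91.5% and 90.3% of keratin counts in the same order. At least 10 CPM in every library was reached by 7 members, and no member was at 0 in all libraries.

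The make-up of this pool differed between libraries of the same genotype. Simple-epithelium keratins (Krt7, Krt8, Krt18, Krt19, Krt20 and Krt23) made up 74.6% of keratin counts in WT 1 and 82.7% in HET 2, against 50.5% in the library labelled WT 2 and 59.9% in HET 1. Basal-layer keratins (Krt5, Krt14 and Krt15) made up 16.6% (WT 1), 22.7% (labelled WT 2), 21.7% (HET 1) and 8.63% (HET 2). Keratins of stressed epithelium and skin appendages (Krt16, Krt17, Krt42 and Krt75) took 4.64%, 22.8%, 15.5% and 6.91%. Each genotype therefore had 1 library rich in simple-epithelium keratins and 1 library with a larger basal and appendage share.

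**Figure D1:**
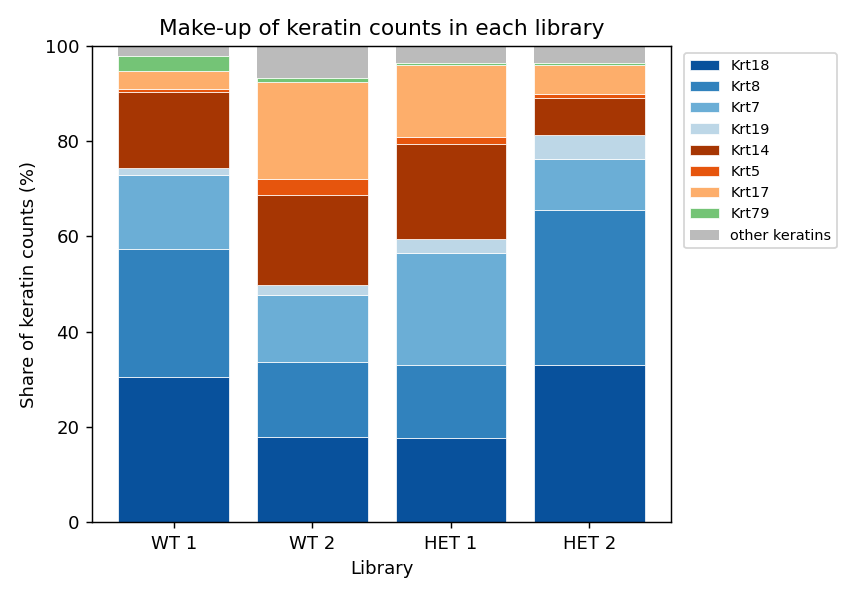
Share of keratin counts in percent (vertical axis) held by 8 keratin genes and by the other 41 together, for each of the 4 libraries (bars). Krt18 and Krt8 are larger in WT 1 and HET 2, and Krt17 is larger in the library labelled WT 2 and in HET 1.

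Krt8 and Krt18, the partner chains of simple epithelium, kept nearly the same ratio in every library. Per kilobase of merged exons they had the highest levels of the family in WT 1 and HET 2, whereas in the library labelled WT 2 Krt17 (274 CPM per kilobase) and Krt14 (225) exceeded Krt8 (168). In HET 1 Krt14 (208) and Krt17 (178) exceeded Krt8 (144). Krt8 (chromosome 15, 101996698 to 102004482, minus strand) stood at 784 CPM (WT 1), 329 (labelled WT 2), 283 (HET 1) and 517 (HET 2). Krt18 (chromosome 15, 102028180 to 102032027, plus strand) stood at 897, 375, 325 and 526 CPM in the same order. Both were high in WT 1 and HET 2 and low in the other 2 libraries, so the genotypes overlapped. As log2 fold changes of HET against WT, Krt8 had -0.48 ± 0.53 (SE, n = 2 per genotype) and Krt18 had -0.58 ± 0.51, with adjusted p = 0.986 for each in the edgeR quasi-likelihood test. Both turned positive without WT 1, at 0.28 and 0.18. On the scale of CPM per kilobase of merged exons, the level of Krt8 was 0.642 times that of Krt18 (WT 1), 0.644 (labelled WT 2), 0.639 (HET 1) and 0.72 (HET 2). The ratio thus varied by 0.17 on the log2 scale, while the levels themselves varied 2.77-fold (Krt8) and 2.76-fold (Krt18). Reads of Krt8 could be split with a near copy, since 36.1% of its 31-base words occur in other genes, 32.2% in the pseudogene Krt8-ps, which had at most 20 counts in any library.

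The start sites of these genes lie 23.7 kb apart and face away from each other. Their upstream sequences are shown because this pair moved together, together with that of Krt5, whose level did not follow that of its partner. They are RefSeq windows (build GRCm38.p6) of up to 250 bases that end before the transcription start, less any base in an annotated exon of the gene, which left 110 bases for Krt8, 214 for Krt18 and 250 for Krt5. The windows are chr15:102004483-102004592 on the minus strand for Krt8, chr15:102027966-102028179 on the plus strand for Krt18 and chr15:101712906-101713155 on the minus strand for Krt5. Capitals mark matches on either strand of the words TATAAA (core promoter box), AGGAAG (an ETS-type word), GGGCGG (a GC box) or TGANTCA (an AP-1-type word).
Krt8: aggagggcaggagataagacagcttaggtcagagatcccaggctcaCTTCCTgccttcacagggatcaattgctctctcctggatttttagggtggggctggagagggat
Krt18: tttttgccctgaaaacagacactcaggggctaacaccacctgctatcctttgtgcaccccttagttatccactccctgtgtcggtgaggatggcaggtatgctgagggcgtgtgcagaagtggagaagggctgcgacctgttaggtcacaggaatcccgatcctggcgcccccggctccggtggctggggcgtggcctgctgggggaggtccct
Krt5: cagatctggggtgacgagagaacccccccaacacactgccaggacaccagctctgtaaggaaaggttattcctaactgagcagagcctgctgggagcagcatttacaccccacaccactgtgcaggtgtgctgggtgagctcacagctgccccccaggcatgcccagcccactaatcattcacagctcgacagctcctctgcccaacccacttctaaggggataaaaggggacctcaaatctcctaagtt
The window of Krt8 held 1 match, the complement of AGGAAG, and those of Krt18 and Krt5 held 0. Windows for 35 of the 49 members were found in the RefSeq table, 36 windows in all. Of these 36, 10 held AGGAAG within the full 250 bases, against 29.5% of all 32851 promoter windows. TATAAA was found in 16 of the 36, among them Krt10, Krt20 and all 7 inner root sheath members, against 12.4% of all windows. GGGCGG was found in 2 (Krt7 and Krt75) against 32.7%, and TGANTCA in 2 (both of Krt13) against 6.75%. A match is a description of these letters alone.

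The other simple-epithelium keratins varied apart from that pair. Krt7, a type II chain of ducts and glands, stood at 455 CPM (WT 1), 292 (labelled WT 2), 428 (HET 1) and 172 (HET 2), lowest where Krt19 was highest. Krt19, a small type I chain of glandular epithelium, stood at 47.3, 44.1, 53.7 and 79.9 CPM, and both HET libraries lay above both WT libraries (log2 fold change 0.55 ± 0.32, SE; adjusted p = 0.986, edgeR). The size of the Krt19 difference depended on HET 2, without which the log2 fold change was 0.17. Krt23, a type I chain, stood at 5.62, 15.2, 8.40 and 20.3 CPM and overlapped between genotypes. Krt20, known from gut and urothelium, had 8 counts (WT 1), 0 (labelled WT 2), 16 (HET 1) and 18 (HET 2). Of these 6 simple-epithelium genes 3 had a log2 fold change above 0 and 3 below.

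Log2 fold changes of the basal-layer keratins were below 0 for all 3 members, and for Krt14 and Krt5 the size rested on single libraries. Krt14 (chromosome 11, 100203162 to 100207548) stood at 465 CPM (WT 1), 395 (labelled WT 2), 366 (HET 1) and 122 (HET 2). HET 2 alone stood far below the rest, and HET 1 lay just under the WT libraries, a separation that was lost with total counts in place of TMM. The log2 fold change was -0.82 ± 0.54 (SE; adjusted p = 0.986, edgeR), and it was -0.29 without HET 2 and -1.86 without HET 1. Of the 31-base words of Krt14, 28.2% occur in other genes, most of them in Krt16. Krt5 (chromosome 15, 101707070 to 101712898), the type II partner of Krt14, stood at 17.4, 70.8, 29.2 and 12.6 CPM and was highest in the library labelled WT 2. The log2 fold change, -1.08 ± 0.72 (SE), became 0.27 once it was left out. Krt15, a type I chain known from basal cells and hair follicle stem cells, stood at 5.47 and 7.23 CPM in WT and at 2.20 and 2.51 in HET. Both HET libraries of Krt15 lay below both WT libraries, with a log2 fold change of -1.43 ± 0.52 (SE), an unadjusted p of 0.034 and an adjusted p of 0.986 (edgeR). It lay between -1.62 and -1.21 when each library was left out in turn.

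The partners Krt5 and Krt14 did not keep a fixed ratio as Krt8 and Krt18 did. Per kilobase, the level of Krt5 was 0.03 times that of Krt14 (WT 1), 0.144 (labelled WT 2), 0.0638 (HET 1) and 0.0827 (HET 2), a range of 2.26 on the log2 scale. Krt7 over Krt19 stood at 2.53, 1.74, 2.10 and 0.568, a range of 2.16. Summed per kilobase, type II chains were at 0.495, 0.328, 0.347 and 0.528 times the level of type I chains, so type I transcripts exceeded type II transcripts in every library. Krt6a, a type II gene outside the rule and a known partner for Krt16 and Krt17, had 91, 1812, 317 and 243 counts. Lengths matter here, since Krt7 has 7049 bases of merged exons but 4094 in its longest transcript.

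**Figure D2:**
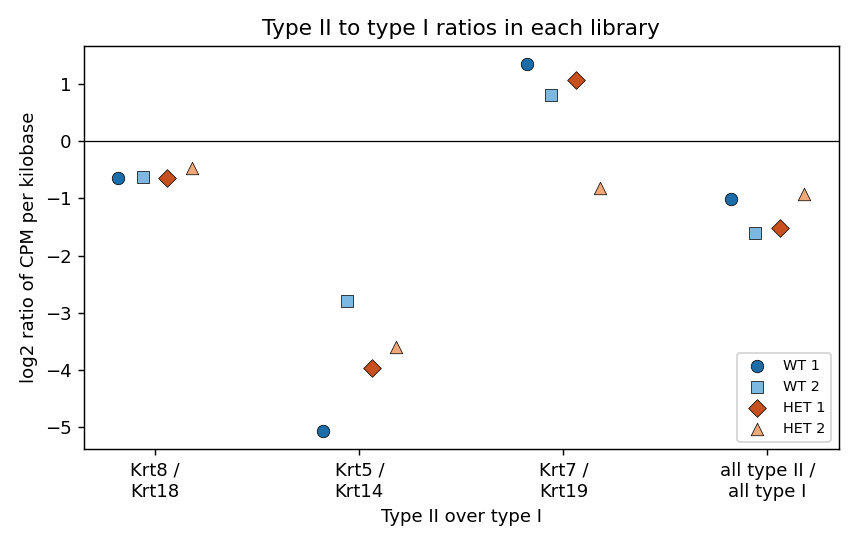
Log2 ratio of CPM per kilobase of merged exons, type II over type I (vertical axis), for 3 partner pairs and for all members summed (horizontal axis), 1 point per library. The 4 points for Krt8 over Krt18 lie within 0.17, and those for Krt5 over Krt14 spread over 2.26.

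Keratins of stressed epithelium and skin appendages did not share 1 order of libraries. Krt17 (chromosome 11, 100256217 to 100261029), induced in wounds and found in hair follicles and basal-like tumours, stood at 116 CPM (WT 1), 426 (labelled WT 2), 276 (HET 1) and 99.5 (HET 2). The genotypes overlapped, and the fitted difference was -0.53 ± 0.72 (log2, SE) with all libraries and 0.70 once the library labelled WT 2 was left out. Krt80, a type II chain of differentiating epithelium outside this group, followed the order of Krt17 at 12.7, 56.1, 25.6 and 6.65 CPM. Its log2 fold change of -1.09 ± 0.86 (SE) became 0.35 without the library labelled WT 2. Krt16 (chromosome 11, 100246091 to 100248902), induced with the Krt6 genes in wounds and fast-growing epidermis, stood at 18.8 and 14.1 CPM in WT and at 6.85 and 8.87 in HET. Both HET libraries of Krt16 lay below both WT libraries (log2 fold change -1.06 ± 0.41, SE; unadjusted p = 0.04, adjusted p = 0.986, edgeR). The direction held when each library was left out, at -1.32 to -0.84. Counts of Krt16 are uncertain, because 51.9% of its 31-base words also occur in transcripts of other genes, chiefly the gene model Gm11597. Krt42, a relative of Krt17, stood at 0.713, 5.74, 1.49 and 1.40 CPM.

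**Figure D3:**
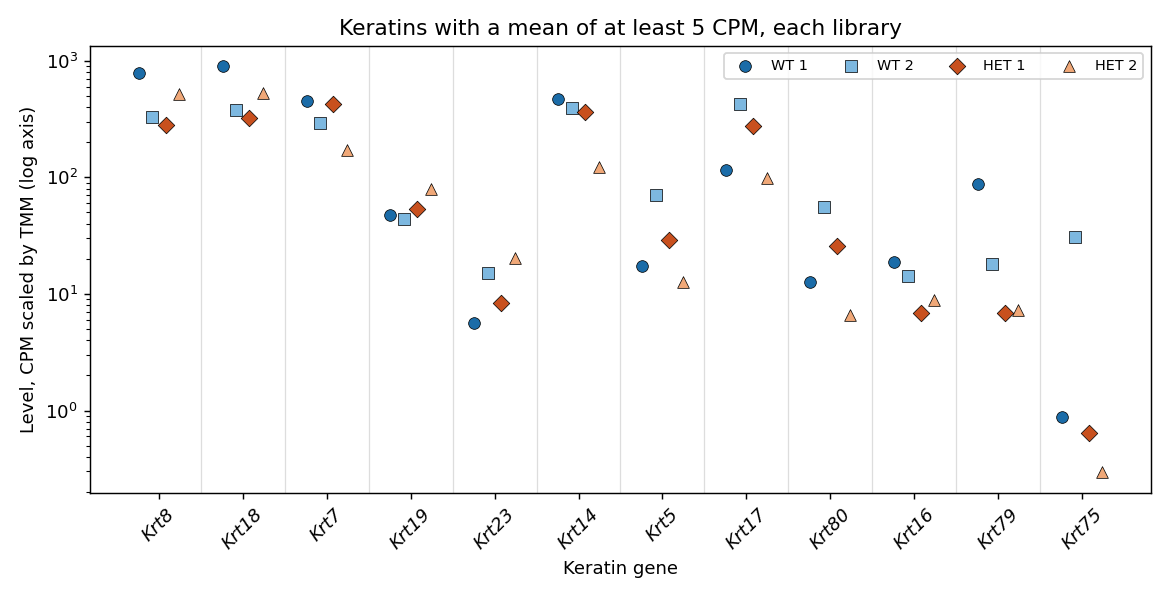
Level in CPM scaled by TMM (vertical log axis) of the 12 keratins with a mean of at least 5 CPM, 1 point per library. Krt79, Krt16, Krt14 and Krt75 have both HET points below both WT points, and Krt19 has both above. Krt5, Krt17, Krt75 and Krt80 are highest in the library labelled WT 2, and Krt8 and Krt18 are highest in WT 1.

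Krt79 had the smallest p-value of the family. It encodes a type II chain known from the infundibulum of the hair follicle and from the cells that line gland ducts, and lies on chromosome 15 between 101929332 and 101940324. It had 1112 counts (WT 1), 257 (labelled WT 2), 106 (HET 1) and 99 (HET 2), or 88.1, 18.2, 6.85 and 7.32 CPM. Both HET libraries lay close together and below both WT libraries, and WT 1 was 4.83-fold above the library labelled WT 2. The log2 fold change was -2.91 ± 0.74 (SE, n = 2 libraries per genotype), with an unadjusted p of 0.00763 and an adjusted p of 0.986 (edgeR), rank 120 of the 21607 genes tested. Without WT 1 it was -1.36, and without each of the other libraries it lay between -3.64 and -2.87. DESeq2 called Krt79 with an adjusted p of 0.00136, while it called 0.59% of the genes for which it gave an adjusted p. Krt79 also passed in edgeR with no filter beyond 1 count, where 0.752% of genes passed, and without the library labelled WT 2, where 0.0417% passed. In the fit without the library labelled WT 2, the lone WT library was WT 1, where Krt79 was highest. Krt79 did not pass in limma-voom (adjusted p = 0.855). In edgeR it did not pass with a 1 CPM filter (adjusted p = 0.974) or with protein-coding genes alone (0.975). Nor did it pass in edgeR under the other scalings or without WT 1, HET 1 or HET 2. Only 0.252% of the 31-base words of Krt79 occur in other genes. Its neighbours in the cluster had too few counts to show whether they shared this pattern. Krt78 had 18, 0, 3 and 11 counts and Krt4 had 9, 1, 7 and 4 in the same order of libraries, both highest in WT 1.

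Krt75 was nearly confined to 1 library. This type II chain is known from the companion layer of the hair follicle, and its gene lies on chromosome 15 between 101563345 and 101573904. It had 11 counts (WT 1), 435 (labelled WT 2), 10 (HET 1) and 4 (HET 2), so the library labelled WT 2 was 35.4-fold above the next. In CPM these are 0.871, 30.8, 0.646 and 0.296. The log2 fold change of -5.04 ± 1.61 (SE; unadjusted p = 0.02, adjusted p = 0.986, edgeR) shrank to -0.86 without that library. Krt75 passed in edgeR with no filter beyond 1 count, and without WT 1, where 3.01% of genes passed and the lone WT library was the one labelled WT 2. The summed level of the cornified epidermis markers was also highest in that library, at 38.3 CPM (WT 1), 251 (labelled WT 2), 78.2 (HET 1) and 34.2 (HET 2). Most of that sum came from Dmkn (111 CPM), Sbsn (82.7) and Cdsn (35.5), while Ivl, Casp14, Flg2 and Tgm3 were lowest in the same library. Of these 14 markers 9 entered the fit, 4 above and 5 below 0, and the late envelope gene Lor was at 0.792 CPM or less in every library. Hair follicle markers summed to 10.5, 76.9, 69.9 and 18.1 CPM, mostly from Tchh, and the hair shaft gene Krtap9-1 had no count in any library. The part of skin cells in the values of Krt75 was not tested.

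Upstream sequences of Krt79 and Krt75 are shown because these genes had the largest negative fold changes of the family. They are RefSeq windows of 250 bases (GRCm38.p6) at chr15:101940325-101940574 and chr15:101573905-101574154, both on the minus strand, with capitals as above.
Krt79: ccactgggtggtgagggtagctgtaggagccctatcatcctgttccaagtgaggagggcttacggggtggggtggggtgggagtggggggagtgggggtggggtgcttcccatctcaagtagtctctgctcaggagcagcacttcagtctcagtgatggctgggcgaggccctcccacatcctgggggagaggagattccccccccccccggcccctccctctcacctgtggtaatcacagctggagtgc
Krt75: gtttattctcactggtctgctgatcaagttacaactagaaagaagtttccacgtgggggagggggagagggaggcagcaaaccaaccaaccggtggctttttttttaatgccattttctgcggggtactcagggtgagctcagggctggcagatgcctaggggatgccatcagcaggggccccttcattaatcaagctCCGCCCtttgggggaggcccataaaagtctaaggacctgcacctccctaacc
The Krt79 window held 0 of the 4 words, and the Krt75 window held 1 match, the complement of GGGCGG.

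Keratins of the upper epidermis, inner root sheath and hair shaft were near the detection limit apart from Krt79. Krt10, the type I chain of the spinous layer, reached 1.43, 1.49, 3.88 and 1.18 CPM, with 60 counts in HET 1 and 16 to 21 in the others. Its type II partner Krt1 had 7, 0, 12 and 5 counts. Krt13, a type I chain of inner mucosal surfaces, had 2, 1, 1 and 2 counts. The 7 inner root sheath members had at most 18 counts in any library, and the 13 hair shaft members at most 22. Krt87, at 1.66, 1.56, 1.23 and 1.33 CPM, was the only hair shaft member in the fit, and 52.4% of its 31-base words are shared with other genes. A count of 0 was found for 18 members in the library labelled WT 2 and for 5 members in each of the other libraries. Krt90 stood at 3.80, 2.98, 1.42 and 0.296 CPM (log2 fold change -1.96 ± 0.87, SE; unadjusted p = 0.0646, edgeR). Of the members in the fit, those below 5 CPM on average with both HET libraries above both WT libraries were Krt20 (counts above), Krt9 of palm and sole skin (4, 0, 20 and 11 counts), Krt26 (0, 7, 18 and 10) and Krt222 (9, 11, 17 and 31).

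Across the family no keratin separated HET from WT in the main edgeR fit after adjustment over all genes. The edgeR fit took in 21607 genes and 24 of the 49 keratins, since 25 had too few counts, at most 21 in any library. Called at an adjusted p under 0.05 were 0 of the 24, as were 0% of all genes tested; DESeq2 called 1 keratin and limma-voom called 0. At an unadjusted p under 0.05 there were 4, Krt79, Krt75, Krt15 and Krt16, all lower in HET, against 3.78% of all genes tested. Both HET libraries were above both WT libraries for 5 of the 24, against 19.6% of all genes, and below both for 7, against 15.9%. With total counts in place of TMM these were 5 and 6. The log2 fold change was above 0 for 9 and below 0 for 15, with a median of -0.49 against 0.04 for all genes tested. Of 13 type I members in the fit 7 were above 0, and of 11 type II members 2 were. A member could enter the fit through the genotype in which it was high, so these counts describe the 24 and not the family. WT 1 held the highest level for 41.7% of the 24, against 24.7% of all genes. Without WT 1 the median of the 24 was -0.02, against 0.13 for all genes tested.

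**Figure D4:**
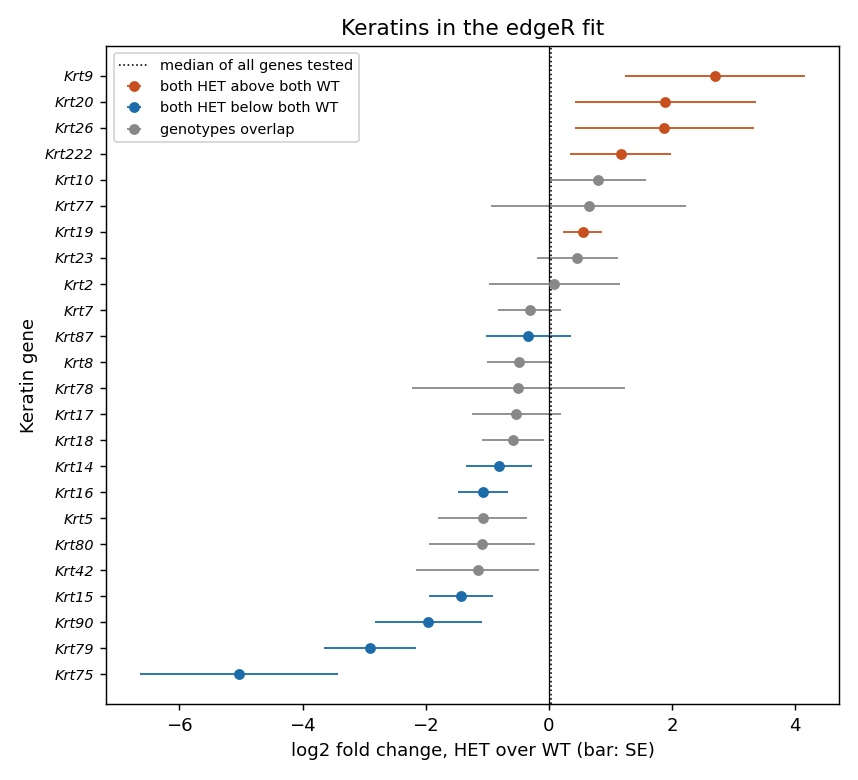
Log2 fold change of HET over WT with its SE (horizontal axis) for the 24 keratins in the edgeR fit (vertical axis), coloured by whether both HET libraries lay above or below both WT libraries. Krt75 and Krt79 lie lowest, at -5.04 and -2.91, and the dotted line is the median of all genes tested, 0.04.

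Genes whose products anchor keratin filaments were mostly highest in the library labelled WT 2. Desmosomes are the cell junctions to which keratin filaments attach, through plakins such as desmoplakin. Of the 21 desmosome and plakin genes listed 19 entered the fit, 3 above 0 and 16 below, with a median of -0.36. Of the 19, 1 (Perp) had an unadjusted p under 0.05, a share near the 3.78% of all genes tested, and its adjusted p in edgeR was 0.986. Of these 19, 15 were highest in the library labelled WT 2, against 26.6% of all genes tested. Perp, a tetraspan protein of desmosomes, stood at 106 CPM (WT 1), 239 (labelled WT 2), 71.0 (HET 1) and 72.6 (HET 2). Dsp, which encodes desmoplakin, stood at 327, 882, 339 and 214 CPM, and Plec, which encodes plectin, at 749, 671, 459 and 503. The other 15 intermediate filament genes had 11 in the fit, 5 above 0 and 6 below, with a median of -0.01. Among them Vim, the mesenchymal filament protein, had 760 and 939 CPM in the WT libraries against 508 and 494 in HET (log2 fold change -0.76 ± 0.32, SE; adjusted p = 0.986, edgeR). Gfap and Lmna, the members with the next smallest p-values, had log2 fold changes of 1.15 and -0.47.

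Transcription factors of epithelial identity gave 20 genes in the fit, 9 above 0 and 11 below, with a median of -0.13. Of these 20, 0 had an unadjusted p under 0.05 in edgeR, against 3.78% of all genes tested. Foxa1, a factor of hormone-sensing luminal cells, stood at 6.57 CPM (WT 1), 0.355 (labelled WT 2), 11.1 (HET 1) and 34.1 (HET 2), highest in the library with the most Krt19. Ovol1, a repressor that acts in epithelial differentiation, stood at 12.7, 47.4, 14.3 and 8.65 CPM, and Grhl3, a factor of barrier formation, at 6.73, 13.3, 6.53 and 3.55. Trp63, named after its values were seen, encodes the basal-cell factor p63, a known regulator of Krt5 and Krt14. It stood at 7.45, 71.9, 21.5 and 8.35 CPM, highest in the library labelled WT 2 and next in HET 1, as Krt5, Krt17 and Krt80 were. Krt14 did not follow this order, at 465 CPM (WT 1), 395 (labelled WT 2), 366 (HET 1) and 122 (HET 2). The library labelled WT 2 also held the largest summed level of the 5 epithelial markers, at 2288 CPM, while HET 1 (1582) and WT 1 (1544) were close. Relative to that sum, all keratins together stood at 1.90 (WT 1), 0.913 (labelled WT 2), 1.16 (HET 1) and 1.44 (HET 2), so the order of the libraries in keratin level was not that of the epithelial markers.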

How the data were processed

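Estimated counts per gene were deposited as whole numbers for 4 libraries. The authors obtained them with Salmon, and the build was GRCm38.p5, both per the submitters' processing notes. Which Salmon version, transcript annotation and strand setting were used is not given in these sources. How reads of similar keratins were shared between genes therefore sets part of the values. The share of 31-base words found in other GENCODE M21 transcripts is given above for some members. It was also 15.8% for Krt5 (9.46% with Krt6a), 15.8% for Krt17 (11.8% with Krt14) and 11.4% for Krt18.

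Of 51826 identifiers 51633 matched GENCODE M21. The genotypes were compared (HET over WT) with edgeR 4.0.16 under R 4.3.3, using filterByExpr, TMM and the quasi-likelihood test across all 21607 genes kept, genotype as the only term, Benjamini-Hochberg adjustment and a threshold of 0.05. SE is the absolute log2 fold change divided by the square root of F. The common biological coefficient of variation was 0.46. The fit was tested on simulated data. DESeq2 1.42.0 and limma-voom (limma 3.58.1), other scalings and filters, protein-coding genes alone and each library left out were alternatives. Levels per kilobase use merged exons.

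The members and the lists were chosen with earlier results of these data known. Named are keratins with a mean of at least 5 CPM, a set of classical members, Elf5 and the 3 genes of smallest p in each partner list. Other members are given as values. Groups were taken from the genotype characteristic (WT) and the title (HET).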

Additional observations from a re-analysis of the deposited data

How the results depend on the processing

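All genes called numbered 0 in the edgeR fit, 324 with no filter beyond 1 count and 131 by DESeq2, and between 0 and 651 when each library was left out; keratins called numbered 0, 2 (Krt75 and Krt79), 1 (Krt79) and between 0 and 1. Without WT 1 edgeR called Krt75 and without the library labelled WT 2 it called Krt79. Relative log expression, upper-quartile scaling, library sizes without mitochondrial genes, total counts alone (added after the data were seen), a 1 CPM filter, protein-coding genes alone and limma-voom each called 0 keratins. Total counts moved the median of all genes tested from 0.04 to 0.22 and that of the keratins tested from -0.49 to -0.32. Without WT 1 these medians were 0.13 and -0.02.

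Leaving out 1 library moved the log2 ratio of summed levels, HET over WT, to between -0.78 and -0.29 for all keratins (main value -0.55). The ranges were -0.86 to 0.20 for simple-epithelium, -1.86 to -0.34 for basal-layer and -1.57 to 0.54 for stress and appendage keratins. They were -2.75 to -0.52 for suprabasal keratins (Krt1, Krt2, Krt4, Krt9, Krt10, Krt13 and Krt76 to Krt79) and -0.035 to 1.27 for inner root sheath keratins. In WT the suprabasal sum was mostly Krt79, at 88.1 of 95.1 CPM (WT 1) and 18.2 of 20.2 CPM (labelled WT 2). Of the 10 suprabasal members 6 entered the fit, 4 above 0 and 2 below, with a median log2 fold change of 0.37. Log2 fold changes that changed sign ranged from -0.36 to 1.34 for Krt10, -0.40 to 1.35 for Krt23, -1.54 to 0.70 for Krt17, -2.46 to 0.35 for Krt80, -1.16 to 0.15 for Krt7, -1.90 to 0.27 for Krt5, -1.02 to 0.28 for Krt8 and -1.07 to 0.18 for Krt18. The lone library is then assumed to vary like the other genotype. The cause was not tested. No paired analysis was made, because the labels give no pairing of WT with HET libraries. The 25 keratins outside the fit had at most 21 counts in any library, and none of them was called with no filter or by DESeq2.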
